A study of Mus musculus with 2 samples.

Results

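The genes of galactose breakdown and of aldose reduction were followed in single mouse muscle stem cells, the resident stem cells of skeletal muscle, before culture and in media that differed in their sugar. The set is Galk1, Galk2, Galt, Galm, Ugp2 and Akr1b3, chosen by name. Of these 6 genes, 5 had a row among the 21216 genes of the count tables, and Galk2 was not analysed here. The study held 4 conditions in 2 libraries, each a 384-well plate into which cells had been sorted. Plate 1 combined freshly isolated cells (labelled Quiescent) with cells cultured for 96 h in 25 mM glucose, called high glucose. On plate 2 were cells cultured for 96 h in 5 mM glucose, called low glucose, or in 10 mM galactose in place of glucose. The 3 cultures shared DMEM with 1 mM sodium pyruvate, fetal bovine serum, horse serum, chick embryo extract, bFGF and antibiotics, and serum brings some sugar of its own into each medium. The sources used here do not give the strain, age, sex or number of the mice.

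Galactose enters metabolism through the Leloir pathway. A mutarotase (Galm) brings the sugar into the ring form that galactokinase (Galk1) phosphorylates, and Galt then exchanges the sugar phosphate with UDP-glucose to give UDP-galactose. Ugp2 makes UDP-glucose from glucose 1-phosphate and UTP, on which glycogen and glycoprotein synthesis also draw. Aldose reductase, in the mouse Akr1b3, stands outside this pathway: it reduces free sugars to polyols with NADPH, glucose to sorbitol and galactose to galactitol, and it also reduces reactive aldehydes.

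After wells with few counts were left out, 102 freshly isolated, 113 high glucose, 120 low glucose and 121 galactose cells remained. The median gene counts per cell were 2536, 6747, 13371 and 14496 in that order, and the summed counts of the pools ran from 284109 to 2035682. All 9 markers of muscle stem cells and myoblasts had counts in each pool, though Des had only 1 to 10. Vcam1 stood at 465 CPM in freshly isolated cells and 48.4 to 51.3 in the cultures, Cd34 at 134 and 258 to 287, and over the 4 pools Myod1 stood at 705 to 2446 CPM (counts of a gene scaled by the gene counts of its pool) and Pax7 at 54.8 to 119.7 CPM. CEL-Seq2 counts the 3′ ends of messenger RNAs, and levels are compared within a gene only. There was 1 library per plate and no replicate of any condition, so no test between conditions was run. Each ratio of 2 pools carries an exact 95% interval that covers counting error only. Each condition filled its own 6 plate rows. Values of the rows are given to show the spread within a plate and are not replicates, and row position and condition cannot be told apart. The plates had 216 and 241 well barcodes, of which 200 were the same on both, since the barcode names a well position.

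The row of Akr1b3 has to be read together with 3 other rows. Akr1b3 (ENSMUSG00000001642, chromosome 6 in the GENCODE M21 annotation) has 3 annotated processed pseudogenes, intronless copies of its messenger RNA, with at least 99% identity over more than 900 bases. They are Gm6644 on chromosome 1 (99.7% identity), Gm6736 on chromosome 12 (99.5%) and Gm12138 on chromosome 11 (99.1%). Over the 948 bases compared, positions 74 to 1021 of the 1387-base transcript, they differed from Akr1b3 at 3, 5 and 9 positions. Another 366 bases of the Akr1b3 transcript lie past that stretch. They are not unique in the annotation: Gm38056 on chromosome 1 matches positions 36 to 1387 at 99.7% identity, on the opposite strand. Its row held 2, 8, 6 and 7 counts in freshly isolated, high glucose, low glucose and galactose cells. It is not annotated as a pseudogene and was not counted as a copy. Of the 451 windows of 50 bases within the last 500 compared bases, 77.8% were identical to at least 1 copy. These windows leave out the 366 bases nearer the 3′ end, so the percentage is not a share of reads. A stretch of 90 bases (transcript positions 659 to 748 of Akr1b3, GENCODE M21) shows how few positions tell the rows apart. It is written 5′ to 3′ in the sense direction, and capitals mark the positions at which any of the 4 sequences differs.
Akr1b3: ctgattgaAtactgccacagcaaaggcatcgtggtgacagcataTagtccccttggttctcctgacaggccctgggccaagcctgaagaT
Gm6644: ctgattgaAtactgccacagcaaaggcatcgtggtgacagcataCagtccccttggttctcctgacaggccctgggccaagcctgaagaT
Gm6736: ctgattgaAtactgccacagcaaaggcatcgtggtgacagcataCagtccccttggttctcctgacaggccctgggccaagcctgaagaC
Gm12138: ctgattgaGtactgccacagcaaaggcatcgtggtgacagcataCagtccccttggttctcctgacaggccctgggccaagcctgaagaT
The sources used here do not say how reads that match several rows were treated. Counts of Akr1b3 and of the copies are therefore uncertain one by one, and the pool ratios below are given for the Akr1b3 row and for the sum of the 4 rows. The copies were looked at after the data were seen.

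Aldose reductase was lowest in freshly isolated cells and highest in high glucose. The Akr1b3 row held 119 counts in freshly isolated, 1119 in high glucose, 1176 in low glucose cells and 1054 in those given galactose. This gave 419 CPM (95% Poisson interval 347 to 501), 1261 (1188 to 1337), 678 (640 to 718) and 518 (487 to 550). By plate row the freshly isolated pool ran from 250 to 525 CPM (median 438) and the high glucose pool from 980.4 to 1450 (median 1263). Low glucose rows ran from 654 to 723 CPM (median 667) and galactose rows from 460.3 to 682 (median 490.2). In the order freshly isolated, galactose, low glucose, high glucose, the first and the second pair of neighbours overlapped in their plate rows, and the third, low against high glucose, did not. The Poisson intervals of freshly isolated and galactose cells overlapped as well.

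**Figure D1:**
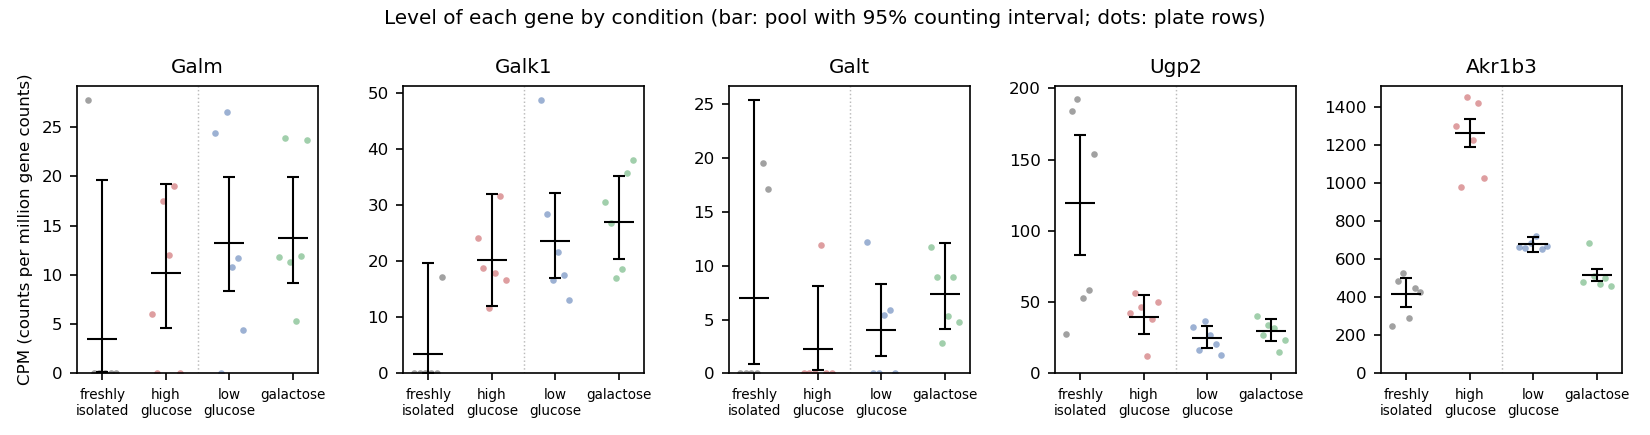
Level of the 5 measured genes in CPM (linear axes from 0, 1 panel per gene) in the 4 conditions. Horizontal bars are the pools with their 95% Poisson interval, dots are the 6 plate rows of a condition, and the dotted line parts the plates; Akr1b3 was highest in high glucose at 1261 CPM and Ugp2 in freshly isolated cells at 119.7 CPM.

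Within plate 1, setting high glucose cells against those freshly isolated addresses the change over 96 h of culture. Akr1b3 was 3.01-fold higher in high glucose (95% interval 2.49 to 3.67), and all 6 high glucose rows lay above all freshly isolated rows. Of the 3848 genes with a mean of at least 50 CPM, 241 had a higher ratio. With the copies added, the level was 507 CPM in freshly isolated and 2183 CPM in high glucose cells, a ratio of 4.31 (3.64 to 5.14). Per 1000 counts of the spike-in RNAs added to each well, Akr1b3 stood at 8.22 and 75.9, a ratio of 9.24. Cells differed in gene counts per spike-in count, with a median of 18.4 in freshly isolated and 57.0 in high glucose cells. Markers of other cell types also differed between these pools. Summed over the 5 of 7 fibro-adipogenic markers with a row they stood at 1126 against 141 CPM, and over 6 of 6 smooth muscle and pericyte markers at 616 against 230 CPM. Without the wells that held 3 or more markers of 1 such type, the Akr1b3 ratio was 3.18 (2.57 to 3.98).

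A gene was called higher or lower when the mean CPM of the 2 pools was at least 10, the ratio was at least 1.5 either way and the interval left out 1. By this rule 2 of the 5 genes were called in high glucose against freshly isolated cells, Akr1b3 higher and Ugp2 lower. Galt and Galm, with means of 4.65 and 6.83 CPM, could not be called in this comparison. Over all 8882 genes with a mean of at least 10 CPM, 21.7% were called higher and 13.4% lower, so that calls were common in this comparison.

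Within plate 2, galactose was compared with low glucose, the only comparison of 2 sugars on 1 plate. Akr1b3 was lower in galactose, at 518 against 678 CPM, a ratio of 0.764 (0.702 to 0.831). Of the 6 galactose rows, 5 lay below all low glucose rows, and row H, at 682 CPM, lay among them. The ratio was under the 1.5-fold needed for a call, but its interval left out 1, as it did on the low side for 4.27% of the 8689 genes measured and on the high side for 4.63%. Among 3997 genes with a mean of at least 50 CPM, 65 had a lower ratio. With the copies added the ratio was 0.729 (0.680 to 0.782), and per spike-in count it was 0.787. Depth differed little between these pools, and the median gene counts per spike-in count were 47.7 and 47.8. When every cell was thinned to 1000 counts, the ratio was 0.880 with an interval that held 1 (0.617 to 1.25). This difference was known from an earlier look at these data, so it is a description.

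None of the 5 genes was called in galactose against low glucose, where 1.53% of genes were called higher and 1.25% lower. Galm, Galk1, Galt and Ugp2 all stood somewhat higher in galactose, and each interval held 1. The ratio was 1.04 for Galm (0.576 to 1.89), 1.14 for Galk1 (0.749 to 1.76), 1.83 for Galt (0.701 to 5.29) and 1.19 for Ugp2 (0.790 to 1.80). For counting error alone, the upper bounds leave room for a difference of up to 1.76-fold in Galk1 and 1.80-fold in Ugp2 at this depth. For Galm the bound was 1.89 and for Galt 5.29. Variation between cultures is not covered. With each cell given equal weight, the Galk1 ratio was 1.56. It passed the call rule only by the interval of the pooled counts shifted to that ratio (1.02 to 2.39). No interval was computed for the equal-weight ratio itself.

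Across the plates, where plate and medium cannot be told apart, Akr1b3 was lower on plate 2. The ratio of low to high glucose was 0.538 (0.495 to 0.584) and that of galactose to high glucose 0.411 (0.377 to 0.447). These comparisons share the high glucose pool. In both, all 6 rows of the first condition lay below all rows of high glucose. Only 106 of 4067 genes with a mean of at least 50 CPM had a lower ratio in the first and 43 of 4096 in the second. Akr1b3 was the 1 gene of 5 called in each comparison, lower both times. In low against high glucose 10.7% of all genes measured were called lower and 7.98% higher, and in galactose against high glucose 12.1% and 9.46%. With the copies added the ratios were 0.463 and 0.338.

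**Figure D2:**
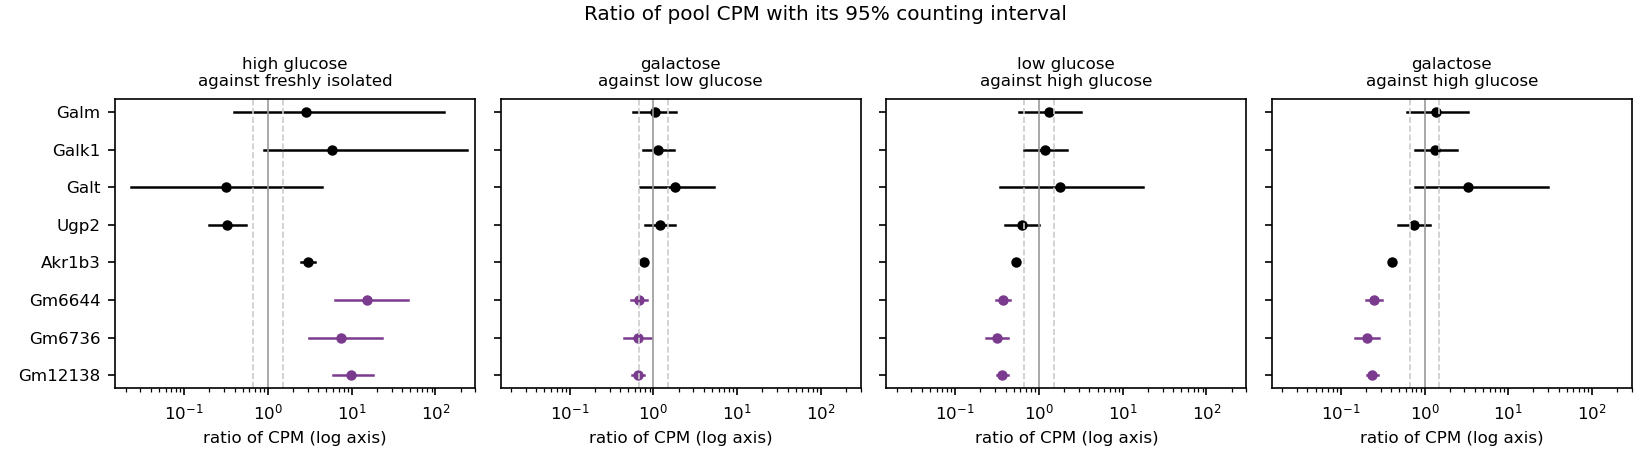
Ratio of pool CPM (log axis) with its 95% counting interval for the 5 measured genes (black) and the 3 near-identical copies of Akr1b3 (purple), 1 panel per comparison. The solid line marks equal levels and the dashed lines 1.5-fold either way; in galactose against low glucose the point of Akr1b3 lies at 0.764 and those of the copies from 0.651 to 0.675.

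The ratio of each of the 3 copies lay farther from 1 than that of Akr1b3 in each comparison. Gm12138 held 15, 466, 333 and 255 counts in freshly isolated, high glucose, low glucose and galactose cells. Gm6644 held 5, 237, 173 and 137, and Gm6736 held 5, 116, 72 and 55. Each of the 3 was therefore lowest in freshly isolated cells by CPM and highest in high glucose. Against freshly isolated cells the high glucose ratio was 9.94 for Gm12138 (5.97 to 17.9), 15.2 for Gm6644 (6.41 to 47.2) and 7.43 for Gm6736 (3.09 to 23.3). The lower bounds of Gm12138 and Gm6644 lie above the upper bound of Akr1b3, and that of Gm6736 lies below it. In galactose against low glucose the ratio was 0.652 for Gm12138 (0.552 to 0.770), 0.675 for Gm6644 (0.535 to 0.849) and 0.651 for Gm6736 (0.450 to 0.937), intervals that overlap that of Akr1b3.

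The share of the 4 rows' counts that fell on the copies is independent of how pools are scaled. It was 17.4% of 144 counts in freshly isolated cells (exact binomial 95% interval 11.6% to 24.6%) and 42.3% of 1938 in high glucose (40.1% to 44.5%). On plate 2 it was 33.0% of 1754 in low glucose (30.8% to 35.2%) and 29.8% of 1501 in galactose (27.5% to 32.2%). Plate rows ran from 8.33% to 28.1% in freshly isolated and from 33.3% to 47.3% in high glucose cells, without overlap. They ran from 29.0% to 36.9% in low glucose and from 25.4% to 34.2% in galactose, with overlap. Counts on all annotated pseudogenes made up 18.7%, 25.1%, 23.8% and 22.7% of the gene counts in the same 4 conditions. That share was thus also lowest in freshly isolated and highest in high glucose cells, and its part in the result was not tested.

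**Figure D3:**
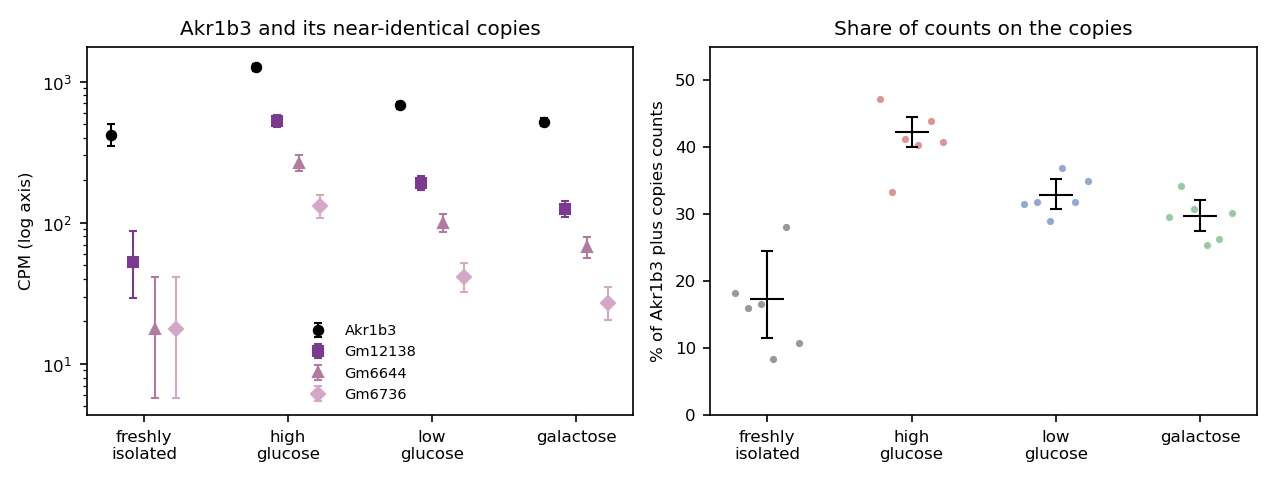
Left, CPM (log axis) of Akr1b3 and its 3 near-identical pseudogene copies by condition, with 95% Poisson intervals. Right, the percent of the counts of Akr1b3 plus copies that fell on the copies, for the pool (bar, 95% binomial interval) and for each plate row (dots); the pool stood at 17.4% in freshly isolated and 42.3% in high glucose cells.

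The single cells with the most Akr1b3 were in high glucose. Per 10000 gene counts of a cell, the median was 3.62 in freshly isolated and 7.64 in high glucose cells, while low glucose cells stood at 5.69 and galactose cells at 4.45. The highest cell of each condition reached 18.3, 67.5, 18.7 and 16.1 in the same order. No count of Akr1b3 was seen in 40 of 102, 14 of 113, 4 of 120 and 7 of 121 cells. After thinning to 2000 counts per cell, the variance of its counts over their mean was 1.42 in freshly isolated and 2.62 in high glucose cells, against 1.08 in low glucose and 1.19 in galactose. A value of 1 is what counting alone gives, and above it the value grows with the level. The SD over the mean of the unthinned values, counting error included, was 1.07 in freshly isolated, 1.005 in high glucose, 0.607 in low glucose cells and 0.605 in those given galactose. In high glucose the 12 cells with the most Akr1b3 counts held 43.9% of them, and in low glucose 12 cells held 32.1%. The log2 of Akr1b3 per 10000 counts, plus 1, rose with the log of depth. The Pearson correlation was 0.24 in freshly isolated, 0.51 in high glucose, 0.39 in low glucose cells and 0.37 in those given galactose. Rank correlations were 0.18, 0.43, 0.30 and 0.20. Cells at 0 are part of these values, and what sampling adds to them was not tested. The correlation of Akr1b3 with the summed copies across cells, both on this log scale, was 0.32, 0.79, 0.69 and 0.56 in the same order. These correlations describe cells that share a library and a range of depth.

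**Figure D4:**
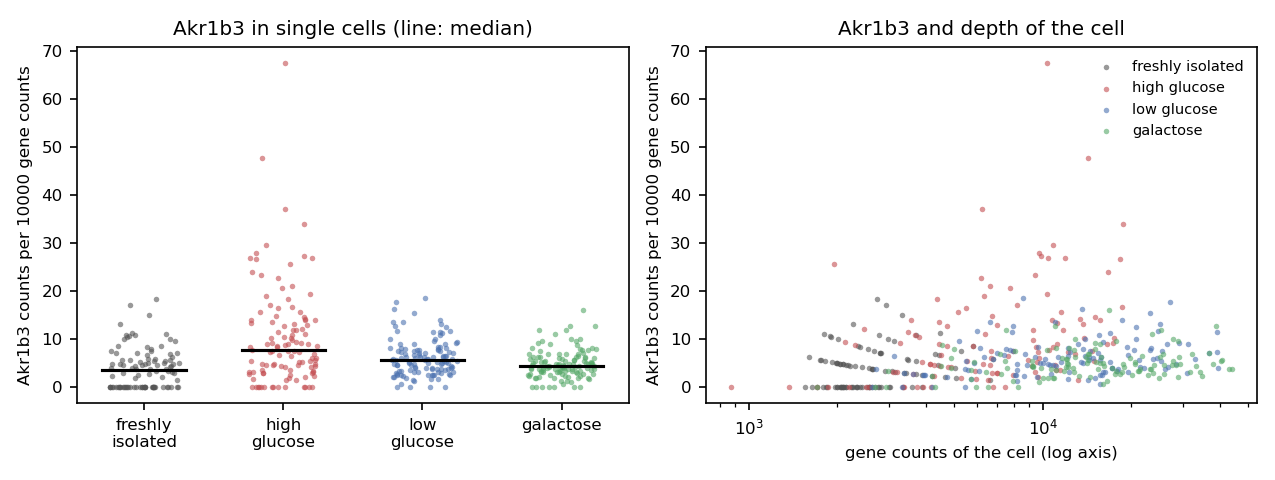
Left, Akr1b3 counts per 10000 gene counts in each cell (dots) by condition, with the median as a line. Right, the same values against the gene counts of the cell (log axis); the cells above 20 per 10000 are all from high glucose, where the highest reached 67.5.

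The share of cells with an Akr1b3 count, after thinning every cell to 1000 counts, was 31.4% in freshly isolated (exact binomial 95% interval 22.6% to 41.3%) and 54.5% in high glucose (44.8% to 63.9%). It was 43.3% in low glucose (34.3% to 52.7%) and 41.3% in galactose (32.5% to 50.6%). Without thinning the shares were 60.8%, 87.6%, 96.7% and 94.2%, with both shares of the deeper plate 2 above both of plate 1. At 2000 counts the share was 69.2% in low glucose (60.1% to 77.3%) and 57.5% in galactose (48.2% to 66.5%), and at 500 counts 34.2% (25.8% to 43.4%) and 24.0% (16.7% to 32.6%). Low glucose was thus the higher at each of these depths, with intervals that overlapped each time.

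The Leloir genes were sparsely counted. Galm (ENSMUSG00000035473, chromosome 17) had 1, 9, 23 and 28 counts in freshly isolated, high glucose, low glucose and galactose cells, which is 3.52, 10.1, 13.3 and 13.8 CPM. Its plate rows reached from 0 to 27.8 CPM in freshly isolated cells, where 5 of 6 rows were at 0, and from 5.32 to 23.8 in galactose. All neighbouring conditions overlapped. A count was seen in 2.48% of galactose cells and in at most 0.980% of the cells of the other conditions at 1000 counts, and without thinning in 20.7% of galactose, 15% of low glucose, 7.08% of high glucose and 0.980% of freshly isolated cells.

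Galk1 (ENSMUSG00000020766, chromosome 11), which commits galactose to the pathway, had 1, 18, 41 and 55 counts in the same order, or 3.52, 20.3, 23.6 and 27.0 CPM. The single freshly isolated count lay in row F, and the other 5 rows were at 0. High glucose rows ran from 11.7 to 31.7 CPM (median 18.4), low glucose rows from 13.1 to 48.8 (median 19.6) and galactose rows from 17.0 to 38.0 (median 28.7). The 3 cultures overlapped, and 4 of the 6 high glucose rows lay above all freshly isolated rows. The ratio of high glucose to freshly isolated was 5.76 with an interval from 0.910 to 240 that held 1. It passed the call rule when spike-in counts were the total (17.7) and when row F was left out, which leaves freshly isolated cells at 0 counts. With equal weight per cell (16.2) it passed by the shifted interval. At 1000 counts per cell, 4.13% of galactose cells (1.36% to 9.38%) and 1.67% of low glucose cells (0.203% to 5.89%) had a Galk1 count, with 31.4% and 21.7% without thinning. None of 102 freshly isolated cells had one at that depth, which allows a share of cells with a count of up to 2.94% (3 of 102 cells; exact binomial upper bound 3.55%), and 0.893% of high glucose cells had one.

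Galt (ENSMUSG00000036073, chromosome 4), the uridylyltransferase, had 2, 2, 7 and 15 counts, or 7.04, 2.25, 4.04 and 7.37 CPM. Galactose was the only condition with a count in all 6 rows (2.83 to 11.8 CPM), and low glucose had 3 rows at 0, high glucose 5 and freshly isolated 4. The mean of each pair of pools was under 10 CPM, so Galt could not be called in any comparison, and each interval held 1. Galt counts were seen in 12.4% of galactose and 5.83% of low glucose cells without thinning, and in no cell of any condition at 1000 counts, which allows a share of cells with a count at that depth of up to 2.94% in freshly isolated and 2.48% in galactose cells (exact binomial upper bounds 3.55% and 3.003%). It sets no limit on cells that express the gene.

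Ugp2 (ENSMUSG00000001891, chromosome 11), which makes UDP-glucose, had the opposite order to Akr1b3 on plate 1. It had 34, 35, 43 and 60 counts in freshly isolated, high glucose, low glucose and galactose cells, or 119.7, 39.4, 24.8 and 29.5 CPM. Freshly isolated rows ran from 27.8 to 193 CPM (median 106), high glucose rows from 11.97 to 56.6 (median 44.5), low glucose rows from 13.1 to 36.5 (median 23.8) and galactose rows from 14.9 to 40.04 (median 29.4). All neighbours overlapped by row. High glucose against freshly isolated gave a ratio of 0.330 (0.200 to 0.545), a call in the lower direction. Per 1000 spike-in counts the levels were 2.35 in freshly isolated and 2.38 in high glucose cells, a ratio of 1.01, so the lower share in culture stood beside a near-equal amount against the spike-ins. Without the wells with markers of other cell types the ratio was 0.331 (0.194 to 0.569).

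Low against high glucose gave a Ugp2 ratio of 0.629 (0.393 to 1.01), whose interval just held 1. It passed the call rule with spike-in counts as the total, with a total over protein-coding genes and without wells of other markers. It also passed without row A or row C of low glucose or row J of high glucose. With equal weight per cell it passed by the shifted interval. Galactose against high glucose gave a ratio of 0.748 (0.485 to 1.17). At 1000 counts per cell, 10.8% of freshly isolated cells had a Ugp2 count (5.51% to 18.5%) against 1.79% of high glucose (0.217% to 6.30%), 1.67% of low glucose and 2.48% of galactose cells. Without thinning the shares were 24.5%, 24.8%, 28.3% and 33.9%.

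Around the Leloir pathway, a list of 23 genes of UDP-sugar use had 12 members with a mean of at least 10 CPM in high glucose against freshly isolated cells. Of these 12, none was called higher and 2 were called lower, beside 21.7% and 13.4% of all genes measured. Uap1, which makes UDP-N-acetylglucosamine, stood at 53.0 against 303 CPM (ratio 0.175), and Pgm2, a phosphoglucomutase, at 29.3 against 84.5 CPM (ratio 0.347). Per spike-in count these ratios were 0.537 and 1.06. The median log2 ratio of the 12 was -0.22, beside 0.34 over all genes measured. Ugcg, which puts glucose from UDP-glucose onto ceramide, had 407 against 447 CPM, and Gbe1, the glycogen branching enzyme, 51.8 against 52.8 CPM. In galactose against low glucose none of 12 was called in either direction, where 1.53% of all genes were called higher and 1.25% lower. The median was 0.00 beside 0.01 over all genes. Ugcg stood at 542 against 537 CPM and Gbe1 at 108 against 109 CPM.

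A list of the polyol pathway and the other aldo-keto reductases had 15 genes with 7 measured, and calls in both directions on plate 1. It also held Glo1, which is not an aldo-keto reductase. In high glucose against freshly isolated cells 3 of the 7 were called higher and 1 lower, beside 21.7% and 13.4% of all genes measured. Their median log2 ratio was 1.91 with a pseudocount of 1 CPM and 1.05 with 10 CPM, beside 0.34 over all genes measured. The 1.91 was the value of Glo1. Akr1e1, Akr7a5 and Dcxr lay above it, each on 1 freshly isolated count and with an interval that held 1. Akr1a1, aldehyde reductase, had 359 against 197 CPM (ratio 1.82), Akr1b8, a close relative of Akr1b3 on the same chromosome, 111.5 against 49.3 (ratio 2.26), and Glo1, which detoxifies methylglyoxal, 29.3 against 7.04 (ratio 4.16, 1.04 to 36.2, on 26 and 2 counts). Sord, which oxidises the sorbitol made by aldose reductase to fructose, was lower at 3.38 against 24.6 CPM, on 3 and 7 counts. In galactose against low glucose none of 7 measured genes was called. Akr1b8 had 113 against 141 CPM there, a ratio of 0.800 whose interval left out 1 (0.665 to 0.962), and Akr1a1 had 367 against 373 CPM. Across plates 6 were measured, and none was called in low glucose or in galactose against high glucose. Of all genes 7.98% and 9.46% were called higher there, and 10.7% and 12.1% lower. The ratios were 1.04 and 1.02 for Akr1a1 and 1.26 and 1.01 for Akr1b8, with intervals that held 1.

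Aldose reductase is a known target of the osmotic stress factor Nfat5 and several aldo-keto reductases are targets of the oxidative stress factor Nrf2, so both groups were set beside it. Of 6 measured osmotic stress genes, none was called higher and 3 lower in high glucose against freshly isolated cells, where 21.7% and 13.4% of all genes were. Nfat5 itself had 104 against 401 CPM, Sgk1, a kinase induced by osmotic stress, 372 against 809.5 CPM and the heat shock protein Hspa1b 767 against 5695 CPM, and the median log2 ratio was -0.85 beside 0.34 over all genes. Slc38a2, an amino acid transporter, had 1027 against 1538 CPM and was not called. Of 11 measured Nrf2 targets, 4 were higher and 2 lower, with a median of 0.48 near the 0.34 of all genes measured. Fth1 and Ftl1, the ferritin chains, had 3138 against 1390 and 33.8 against 3.52 CPM (Ftl1 on 30 counts and 1 count), and the other higher genes were Gsr and Taldo1, named after their values were seen. Hmox1, heme oxygenase, had 1653 against 2914 CPM and Srxn1, sulfiredoxin, 202 against 584 CPM. Calls in the lower direction depended on the scaling: per spike-in count the ratio of high glucose to freshly isolated was 0.793 for Nfat5 and 0.413 for Hspa1b, but 1.41 for Sgk1, 1.74 for Hmox1 and 1.06 for Srxn1. Across plates, 2 of the 6 osmotic stress genes were called lower than in high glucose, beside 10.7% of all genes in low glucose and 12.1% in galactose. They were Hspa1b (0.276 in low glucose and 0.265 in galactose) and Hspa4l (0.446 and 0.416), the latter named after its values were seen. The other 4 were not called. Nfat5 (1.11 and 1.14) and Slc6a6 (1.14 and 1.13), also named after its values were seen, stood above 1. Slc38a2 (0.888 and 0.870) and Sgk1 (0.898 and 0.934) stood below. The intervals of Slc6a6 and Slc38a2 left out 1. In galactose against low glucose no member of either list was called, with medians of -0.02 and 0.02. Nfat5 stood at 118 against 115 CPM and Hmox1 at 2461 against 2349 CPM.

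The 2 genes most like Akr1b3 in pattern were copies of it, and the third copy, Gm6736, was not among the 5 most alike. Over the pools of 24 plate rows from all 4 conditions, and among 3964 genes with a mean of at least 50 CPM, the correlation of log2(CPM + 10) with Akr1b3 was highest for Gm12138 (0.96) and Gm6644 (0.94). The next were Gm8464 (0.92), Gm5388 (0.91) and Gm4918 (0.88), which are also annotated as processed pseudogenes. After the mean of each condition was subtracted the values were 0.78 and 0.86 for the copies and 0.55, 0.74 and 0.75 for the others. Ugp2 was most like Syne2 (0.83), Atf3, Socs3 and Gna13 (0.79 each) and Ell2 (0.78), and these fell to 0.47 to 0.60 once the condition means were subtracted. The row pools share 2 libraries and differ in depth, so these values describe likeness only.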

How the data were processed

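RNA was measured by a modified CEL-Seq2 protocol in single cells sorted into 384-well plates, per the labels, with a UMI of 6 bases and a well barcode of 8 bases. The deposited values are whole-number counts, not normalized, for each gene in each well. The sources used here do not give the aligner, counter, genome build, annotation or any collapsing by UMI, and the submitters' processing notes name edgeR with no version. Conditions came from the deposited sheet of 457 wells. Wells with at least 500 gene counts and 250 genes were kept, which dropped 1. ERCC spike-ins stayed out of the totals, no doublet caller was run, and symbols came from GENCODE M21 for 99.6% of identifiers.

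Counts were summed per condition and scaled to CPM. Ratios carry exact conditional (Clopper-Pearson) 95% intervals. With equal weight per cell no interval was computed, and calls used that of the pooled counts shifted to the new ratio. Log2 list medians used a pseudocount of 1 CPM. Shares of cells were taken after thinning to 1000 counts, and the floor for 0 counts was 3. Near-identical copies were found with blastn 2.17.0 on the GENCODE M21 transcripts. Steps ran in Python 3.11.15 with scipy 1.17.1 and, for the TMM alternative, edgeR 4.0.16, and were tested on simulated data.

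The members and lists were chosen with earlier results of these data known. Named genes were the 6 members, up to 4 genes per list (2 by total counts and 2 by the distance of the interval bound from 1), the 5 genes most like Akr1b3 and the 5 most like Ugp2, and pseudogenes of Akr1b3. Alternatives were other scalings, well minimums, cell weights, a correction for the number of UMIs, thinning, CPM minimums, wells with other markers left out and plate rows left out. The sum with the copies and the protein-coding total were chosen after seeing the data.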

Additional observations from a re-analysis of the deposited data

How the results depend on the processing

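Akr1b3 kept its direction in all 4 comparisons under each setting run, with a ratio of 2.25 to 9.24 in high glucose against freshly isolated cells and of 0.729 to 0.880 in galactose against low glucose. The latter was 0.880 only when cells were thinned to 1000 counts, which leaves fewer counts, and ran from 0.716 (without galactose row H) to 0.780 with 1 plate row left out. Ugp2 in high glucose against freshly isolated cells was no longer called with spike-in counts as the total, at a ratio of 1.01 (0.612 to 1.67). Gene counts per spike-in count differed between these pools, and why was not tested. The number of members called in galactose against low glucose, 0, became 1 (Galk1, by the shifted interval) with equal weight per cell and stayed 0 with any plate row left out. In low against high glucose it was 1 and became 2, with Ugp2 added, under equal weight per cell, spike-in counts as the total, a protein-coding total and without wells of other markers, and it ran from 1 to 2 with a plate row left out. The cause was not tested. Of 60 shares of cells at other thinning depths, 28 stayed within their interval and 32 moved. The 16 list medians and 10 likeness values kept their direction under another pseudocount, though the polyol and aldo-keto median in high glucose against freshly isolated cells went from 1.91 to 1.05. No paired analysis was possible because each condition is 1 pool with no numbered replicates. Galm, Galk1 and Galt are limited by depth, with at most 55 counts in a pool.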
